A study of Mus musculus with 25 samples.

Results

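Adult male mice that ate regular chow after weaning, but whose mothers had eaten either a hypercaloric diet (HCD) or regular chow (RD), were compared by RNA sequencing of the hypothalamus. The members are the sample groups HCD-RD Male (dam on HCD, offspring on RD; 3 samples) and RD-RD Male (dam and offspring on RD; 4 samples), chosen by their labels, 7 of the 25 samples and 2 of the 8 groups of the study. Dams were C57BL/6J mice given a high-sucrose diet with 52% fat, or chow, starting 1 month before mating and going on through pregnancy and nursing. All offspring described first were wild-type males, had chow alone from weaning on and were killed at 3 months of age. Both groups therefore shared the chow of adult life, and the diet of the mother was the labelled difference between them. The study's title asks about inflammation and epigenetic mechanisms in the hypothalamus.

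For comparison, RD-weaned females (groups HCD-RD Female and RD-RD Female), HCD-weaned males (HCD-HCD Male and RD-HCD Male) and HCD-weaned females (HCD-HCD Female and RD-HCD Female) were used. They are of the same strain and age, with 3 samples in each of these groups, and none of the 4 comparisons shares a sample with another. Whether the animals of 1 group were littermates is not stated in the labels, and the p-values rest on the spread among the animals sequenced, which may be technical in part. All values come from the authors' deposited tables of comparisons. The files with single libraries hold 6 columns for these males where the labels list 7 samples, and the column names match no label, so values per animal and depth per sample are not used here. Whether the deposited comparison of these males rests on 6 or on 7 libraries is not stated in the sources used here.

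A log2 fold change is given as read, with positive meaning higher in offspring of HCD dams. The sources used here do not state which group is the numerator in these tables: for HCD-weaned offspring the offspring of RD dams are labelled control, and the RD-weaned tables were read in the same order. If RD dams are the numerator, every sign of the table turns: Snap25, at 0.88 as read in the authors' deposited table, stands at -0.88 turned, and Mir6236, at -3.28 as read, stands at 3.28. Sizes, errors and p-values stay as they are. Each value after ± is a standard error (SE), and adjusted and unadjusted p are those of the authors' deposited tables except in tests of a difference between tables. Of 24421 genes in the authors' deposited table of RD-weaned males, 14474 reached a mean normalized count of 10, the minimum for a gene to be described. Just inside that minimum were Inhba (mean normalized count 10.009) and Usp51 (10.015), and just outside were Gm20754 (9.9901) and Anxa8 (9.9863), in the authors' deposited table. An adjusted p was present for 12920 of the 14474. The other 1554 have a fold change and no p.

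The hypothalamus senses leptin, insulin and nutrients and sets hunger, energy use and hormone release. Neurons of its arcuate nucleus that make AgRP and NPY drive feeding, those that make POMC and CART restrain it, and larger neurons elsewhere in the region make oxytocin, vasopressin, orexin and melanin-concentrating hormone. Maternal overnutrition during gestation and lactation, when these circuits form, is a common experimental model of later metabolic disease.

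The gene with the smallest p was Mir6236, annotated as a microRNA on chromosome 9 (GRCm38.p6, plus strand, 110281287 to 110281409). A microRNA is a short RNA that pairs with target messages through its seed, bases 2 to 8. Its mature sequence is shown because the largest difference in the table lies at this locus. The line gives the mature RNA from RefSeq (GRCm38.p6, chr9:110281353-110281371, plus strand), 5′ to 3′, with the seed in capitals.
mmu-miR-6236: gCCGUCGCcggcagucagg

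A library made from poly(A) RNA counts reads from longer transcripts that overlap the locus, not the mature RNA of 19 bases. The mature sequence occurred in no other gene among 141767 GENCODE transcripts searched. The sequence of the 45S ribosomal precursor was not part of that search. Rn45s, the 45S precursor of ribosomal RNA, was the other strongly negative RNA. Mir6236 stood at a log2 fold change of -3.28 ± 0.446 (adjusted p = 2.28e-09), or 9.73-fold, in the authors' deposited table. Rn45s stood at -2.29 ± 0.453 (adjusted p = 0.00201), or 4.87-fold, in the same deposited table of the authors. How reads with several matches in the genome were counted is not given in the sources used here, so both values are uncertain. Both RNAs are abundant, with a mean normalized count of 25628 for Mir6236 and 35063 for Rn45s in the authors' deposited table.

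RNAs that normally carry no poly(A) tail were described by a list of 34. Of these, 13 reached the minimum and 7 were tested, Mir6236 and Rn45s included, of which 6 were negative (median -0.67), in the authors' deposited table. Without Mir6236 and Rn45s, 4 of 5 were negative, with a median of -0.55, 1 had an unadjusted p under 0.05 and 0 were called, in the authors' deposited table. That 1, the RNase P RNA gene Rpph1, stood at -1.36 ± 0.42 (unadjusted p = 0.0014) in the authors' deposited table. The 6 members of this list without a p were all negative too, between -1.52 and -0.17. Summed over the whole list, these RNAs made up 4218 ppm of the sum of mean normalized counts in the authors' table of RD-weaned males, against 389 to 2496 ppm in the other 3 deposited tables, which were normalized separately. Mir6236 and Rn45s, whose counts are uncertain, hold most of this share in RD-weaned males. Whether the carry-over of tail-less RNA into the libraries moved with the groups was not tested, as this needs values per library.

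Few genes passed the test. The authors' deposited table calls 11 of 12920 tested genes at an adjusted p under 0.05, or 0.0851%, with 5 positive and 6 negative. At an unadjusted p under 0.05, 250 genes (1.93%) were positive and 305 (2.36%) negative in that deposited table. With the Wald statistic (fold change over standard error) rescaled by its robust spread of 0.847, the count rose to 74 (42 positive and 32 negative) and held all 11. This rescaling enlarges every statistic and keeps their order, so that no call could be lost was fixed in advance. Over all tested genes the median log2 fold change was 0.00, with quartiles at -0.23 and 0.20, and 50.02% of genes were positive in the authors' deposited table. Lists of genes below are read against these values, and no list was tested as a set.

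Of the 5 called genes that were higher in offspring of HCD dams as read, a pair belong to the synapse. Snap25, a SNARE protein that drives fusion of synaptic vesicles with the membrane, had the smallest standard error among all tested genes (0.14) and a log2 fold change of 0.88, or 1.84-fold (adjusted p = 2.31e-06), in the authors' deposited table. Nptn encodes neuroplastin, an adhesion glycoprotein of synapses, and stood at 0.66 ± 0.16 (adjusted p = 0.0335) in the authors' deposited table. Snap25 spans bases 136713439 to 136782428 of chromosome 2, and Nptn bases 58582240 to 58652879 of chromosome 9, in GRCm38.p6. Of the 42 genes of the wider list for synaptic vesicle release, Snap25 was the 1 called among 40 tested, while 18 were positive and 22 negative and the median was -0.00 in the authors' deposited table. The rest of the release machinery thus held no common sign.

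The other 3 positive calls have no shared role. Nmral1, a sensor of the NADPH balance of the cell, stood at 1.41 ± 0.288 (adjusted p = 0.00239), or 2.66-fold, in the authors' deposited table. The protein-coding gene 2610301B20Rik stood at 1.16 ± 0.248 (adjusted p = 0.00614) in the same deposited table of the authors. Fam126b, a relative of hyccin, which helps to hold a phosphatidylinositol kinase at the plasma membrane, stood at 0.97 ± 0.229 (adjusted p = 0.0359) in the authors' deposited table. Nmral1 lies on chromosome 16 (4711317 to 4719356), 2610301B20Rik on chromosome 4 (10874044 to 10899425) and Fam126b on chromosome 1 (58522806 to 58586333) in GRCm38.p6. Expression of all 3 was moderate, with mean normalized counts of 397, 524 and 911 in that order in the authors' deposited table.

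Besides Mir6236 and Rn45s, 4 protein-coding genes were called as lower in offspring of HCD dams as read. Fchsd1, on chromosome 18, encodes an adaptor of membrane and actin remodelling and stood at -1.35 ± 0.274 (adjusted p = 0.00239), or 2.55-fold, in the authors' deposited table. Zfp36l1, whose protein binds AU-rich elements and promotes decay of messages, stood at -1.01 ± 0.224 (adjusted p = 0.0133) in the authors' deposited table. Pcdh15, a protocadherin best known from the tip links of hair cells, stood at -1.10 ± 0.264 (adjusted p = 0.0387) in the authors' deposited table. Nnat encodes neuronatin, a small protein of the endoplasmic reticulum made from the paternal copy alone, and stood at -0.90 ± 0.219 (adjusted p = 0.0495) in the authors' deposited table. In GRCm38.p6, Zfp36l1 lies on chromosome 12 (80107760 to 80113013), Pcdh15 on chromosome 10 (73096277 to 74649831) and Nnat on chromosome 2 (157560078 to 157562525). The value for Nnat lies close to the threshold, and it reached an adjusted p of 0.0514 once the trend with transcript length had been removed.

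The genes next in order of p did not pass. Doc2b, a calcium sensor of spontaneous transmitter release, stood at -0.83 ± 0.205 (adjusted p = 0.0536), and Ap3m1, a subunit of the AP-3 adaptor that sorts cargo to lysosomes and synaptic vesicles, at 0.78 ± 0.194 (adjusted p = 0.0571) in the authors' deposited table. For the next positive genes, log2 fold changes in the authors' deposited table were 0.64 for the COPI coat gene Copb1, 1.30 for the membrane-insertion gene Emc9, 1.19 for the Golgi mannosidase gene Manea, 0.72 for the lysosomal gene Tmem106b and 1.03 for the deubiquitinase gene Otud6b. Adjusted p for these 5 ran from 0.0735 to 0.0905 in that deposited table of the authors. The remaining positive genes among the 15 of smallest p were Sgcb (0.76), Ptrh2 (1.14), the deadenylase gene Cnot7 (1.02) and Dlx1as (1.77), with adjusted p from 0.0719 to 0.106, in the authors' deposited table. Dlx1as is transcribed opposite to Dlx1. The libraries were stranded, but whether counting used the strand is not given in the sources used here. The count for Dlx1as may therefore include reads of Dlx1.

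On the negative side, the next genes in order of p were Pkmyt1 (-1.44), a kinase that restrains entry into mitosis, the growth factor gene Vegfb (-0.95), the cilium gene Bbs9 (-0.96) and the metalloprotease gene Tll1 (-1.47) in the authors' deposited table. Tmem91 (-1.23), Thsd1 (-1.22), Hdgf (-0.60) and Gprin2 (-1.59) followed, and adjusted p for all 8 lay between 0.0757 and 0.149 in the authors' deposited table. Expression of Pkmyt1, Tll1 and Gprin2 was low, with mean normalized counts of 141, 64.5 and 64.8 in the authors' deposited table.

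**Figure D1:**
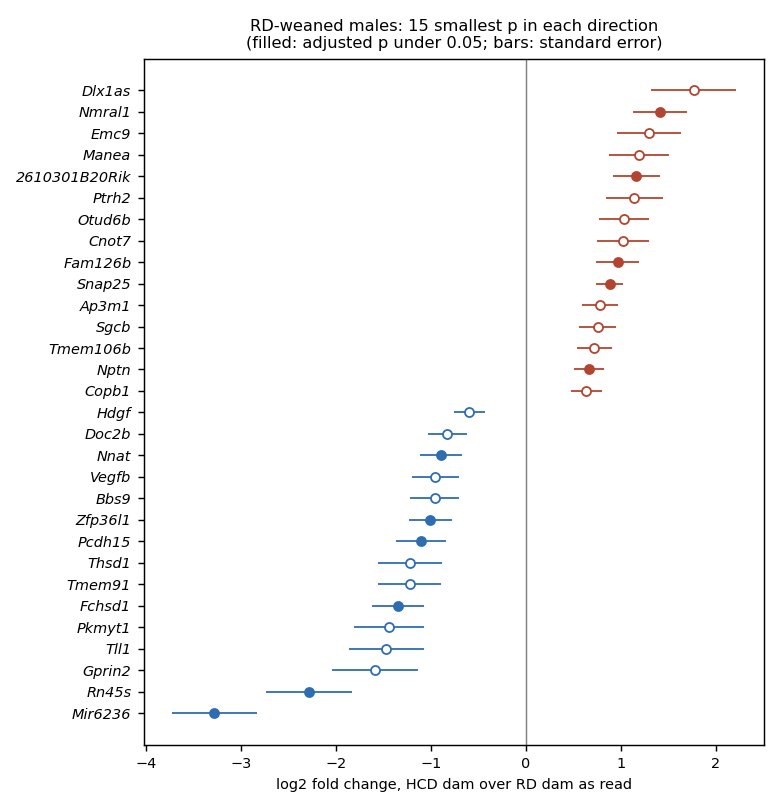
Log2 fold change (horizontal axis, HCD dam over RD dam as read) of the 15 genes with the smallest p in each direction among RD-weaned males, from the authors' deposited table; bars are standard errors and filled points have an adjusted p under 0.05. Mir6236 and Rn45s lie far to the left, and Dlx1as, which was not called, lies farthest to the right with a wide error.

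Inflammation was addressed with a list of 53 cytokine, NF-kB and interferon genes. Of these, 42 reached the minimum and 37 were tested, with 22 positive and 15 negative, a median of 0.11 and 0 at an adjusted or an unadjusted p under 0.05 by the Wald test in the authors' deposited table. The cytokine genes Tnf, Il1b and Il6 were under the minimum, with mean normalized counts of 0.669, 1.35 and 0.804 in the authors' deposited table, and no difference in them was detectable at this depth. Nfkbia, the inhibitor of NF-kB that is induced by it, stood at 0.48 ± 0.40 and Mif at 0.71 ± 0.38 (unadjusted p = 0.063) in that deposited table of the authors. The interferon factor Irf1 stood at -0.70 ± 0.42 in the authors' deposited table. Neither the sensors nor the effectors of this list thus passed the test in either direction.

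Microglia, the immune cells of the brain, and complement were described by 28 genes. Of 26 tested, 11 were positive and 15 negative with a median of -0.06 and none called in the authors' deposited table. The complement gene C4b (-0.57 ± 0.27; unadjusted p = 0.032) and the microglial receptor gene Gpr34 (0.81 ± 0.39; unadjusted p = 0.038) had the smallest p, with opposite signs, in the authors' deposited table. Aif1, a general marker of microglia, stood at -0.47 ± 0.44 in the authors' deposited table. For genes of MHC class I, which present peptides to T cells, 9 were tested with 0 called, and H2-Q4 stood at -0.97 ± 0.43 (unadjusted p = 0.024) in the authors' deposited table. Reads of H2-Q4 may be split among its close relatives.

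Epigenetic enzymes were described by a list of 53 genes for DNA methylation and histone modification. Of 50 tested, 17 were positive and 33 negative, the median was -0.06, and 0 were called by the Wald test in the authors' deposited table. At an unadjusted p under 0.05 there were 0 positive and 3 negative members, set against 2.36% of all genes on the negative side. These were Sirt2, a deacetylase abundant in myelin-forming cells (-0.51 ± 0.17; unadjusted p = 0.0029), the DNA demethylase gene Tet2 (-0.76 ± 0.36; unadjusted p = 0.033) and the histone demethylase gene Kdm6b (-0.72 ± 0.36; unadjusted p = 0.043) in the authors' deposited table. The DNA methyltransferase genes Dnmt1 (0.05 ± 0.45) and Dnmt3a (0.05 ± 0.43) had wide errors in the authors' deposited table. Imprinted genes, whose expression depends on the parent of origin, had 31 tested members with 13 positive, a median of -0.04 and Nnat as the 1 called in the authors' deposited table. Dlk1, another imprinted gene, stood at -0.74 ± 0.45 (unadjusted p = 0.099) and Cdkn1c at 0.62 ± 0.43 in that deposited table of the authors.

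Peptides and receptors of the feeding circuits showed no common sign. Of 35 genes, 29 were tested, with 15 positive, 14 negative, a median of 0.08 and 0 called by the Wald test in the authors' deposited table. The 5 members without a p were all negative, and over all 34 members at the minimum the median was -0.09. Over the 21 tested members with a mean normalized count of 100 or more the median was -0.03. At an unadjusted p under 0.05, 1 was positive and 3 were negative in the authors' deposited table. Pcsk2, the convertase that cuts prohormones such as proopiomelanocortin, stood at 0.80 ± 0.38 (unadjusted p = 0.038), and Pcsk1n, an inhibitor of the convertase PCSK1, at -0.53 ± 0.25 (unadjusted p = 0.031) in the authors' deposited table. Nucb2, which encodes the precursor of the satiety peptide nesfatin-1, stood at -0.89 ± 0.42 (unadjusted p = 0.033), and the CART precursor gene Cartpt at -1.05 ± 0.42 (unadjusted p = 0.013) in the authors' deposited table. Orexin (Hcrt, -0.14 ± 0.32) and Pmch, the gene of melanin-concentrating hormone (-0.21 ± 0.33, no p), differed by less than their standard errors in the authors' deposited table.

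Among hormone-regulating peptides and receptors, 22 of 27 genes were tested, 10 were positive, the median was -0.10 and 0 were called or had an unadjusted p under 0.05 by the Wald test in the authors' deposited table. The stress peptide gene Crh stood at -0.28 ± 0.38, its receptor gene Crhr1 at -0.63 ± 0.39, Trh at -0.11 ± 0.41 and the vasopressin gene Avp at -0.22 ± 0.41 in the authors' deposited table. Leptin and insulin signalling had 30 tested genes, of which 18 were positive, with a median of 0.10 and again 0 called or with an unadjusted p under 0.05 by the Wald test in the authors' deposited table. The receptor genes Lepr (0.35 ± 0.35) and Insr (0.18 ± 0.40) and the adaptor gene Irs2 (-0.01 ± 0.39) were no larger than about their standard errors in the authors' deposited table. Over all tested genes the standard error had a median of 0.397 in that deposited table of the authors. For scale, the difference of Cartpt given before, with an error close to that median, reached 0.762 as adjusted p in that deposited table of the authors.

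Ion channels leaned to the positive side as read. Of 45 tested genes for voltage-gated channels, 32 were positive and 13 negative with a median of 0.12, and 4 positive and 0 negative members had an unadjusted p under 0.05, against 1.93% of all genes on the positive side, in the authors' deposited table. Among the 4 were the inward-rectifier gene Kcnj3 (0.76 ± 0.35) and the calcium channel beta subunits Cacnb4 (0.46 ± 0.22) and Cacnb3 (0.46 ± 0.23), with unadjusted p from 0.030 to 0.046, in the authors' deposited table. For channels opened by transmitters, 19 of 30 were positive with a median of 0.15, and the glycine receptor subunit gene Glrb stood at 0.53 ± 0.18 (unadjusted p = 0.0035) in the authors' deposited table. None of these genes was called in the authors' deposited table. Markers common to all neurons were positive in 9 of 16 with a median of 0.09 in that deposited table. With the trend with transcript length removed from the authors' fold changes, the medians were 0.08 for voltage-gated channels and 0.12 for channels opened by transmitters. For the markers common to neurons the median was then 0.14, so this list went from the lowest of these medians to the highest. Genes of the neuronal cytoskeleton and axon leaned the other way, with 6 of 21 tested members positive and a median of -0.15. In the authors' deposited tables the medians for voltage-gated channels were 0.08 in RD-weaned females, -0.34 in HCD-weaned males and -0.13 in HCD-weaned females. For channels opened by transmitters they were 0.09, -0.34 and -0.16 in that order.

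Genes of protein synthesis and respiration had the opposite sign. Cytosolic ribosomal protein genes, which encode the protein part of the ribosome, were negative in 69 of 73 tested members with a median of -0.40, and the 7 members without a p were negative as well, in the authors' deposited table. None of them was called, and 0 had an unadjusted p under 0.05 by the Wald test: Rpl35a stood at -0.80 ± 0.45, Rpl35 at -0.77 ± 0.45 and Rpl10 at -0.67 ± 0.40 in the authors' deposited table. Many of these genes have processed pseudogenes that can share reads. Mitochondrial ribosomal protein genes (16 of 72 positive, median -0.24), respiratory chain genes (11 of 69 positive, median -0.25) and proteasome genes (12 of 32 positive, median -0.13) had negative medians too in the authors' deposited table. Mrpl38 (-0.56 ± 0.20; unadjusted p = 0.0046) was the 1 member of these 3 lists with an unadjusted p under 0.05 in the authors' deposited table. Cycs, the gene of cytochrome c, was an exception in sign at 0.64 ± 0.41 in that deposited table of the authors.

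Transcript length moved slightly with the fold change. In the fifth of genes with the shortest transcripts 43.8% were positive in the authors' deposited table, against 55.3% in the fifth with the longest, and Spearman's rho was 0.085 over 12474 genes. Ribosomal protein genes are short, with a median length of 637 nucleotides, and voltage-gated channel genes long, at 3429 nucleotides. The fifth of shortest genes had a median log2 fold change of -0.06 in the authors' deposited table, and with the length trend removed the median of the ribosomal list went from -0.40 to -0.35. Respiratory chain genes, with a median length of 608 nucleotides, went from -0.25 to -0.16 with this trend removed from the authors' fold changes. The part of RNA quality in these values was not tested.

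**Figure D2:**
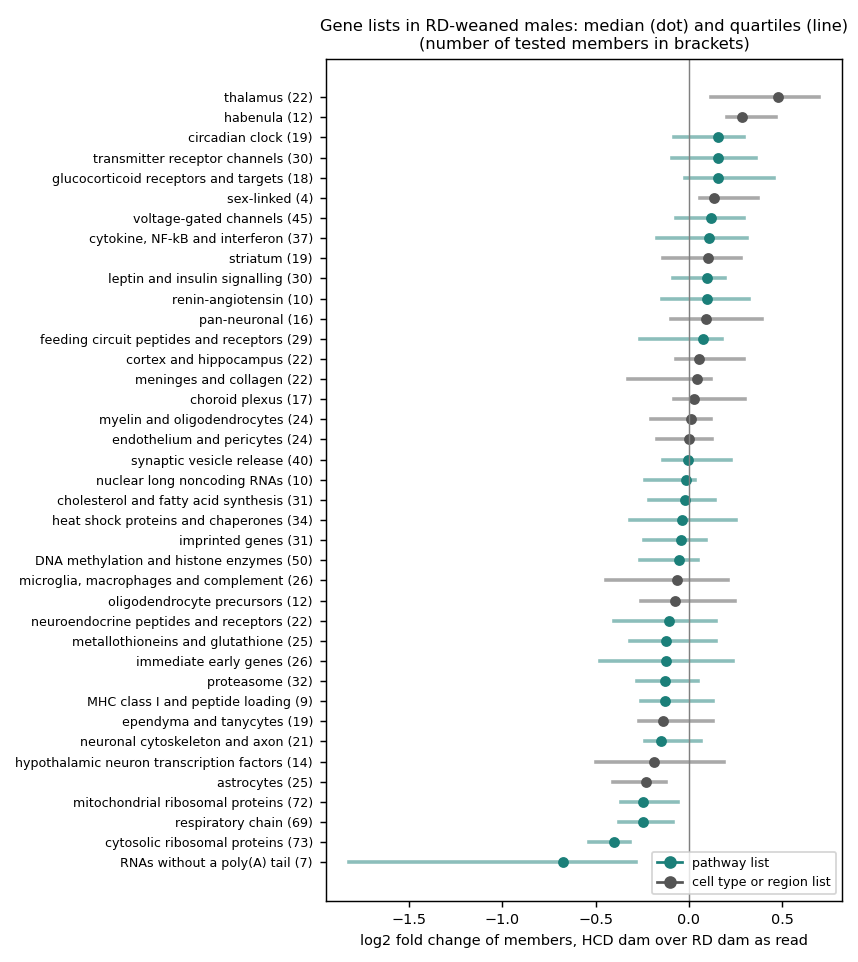
Median (dot) and quartiles (line) of the log2 fold change (horizontal axis, HCD dam over RD dam as read) over the tested members of each gene list in RD-weaned males, from the authors' deposited table, with the number of tested members in brackets. RNAs without a poly(A) tail and cytosolic ribosomal protein genes lie lowest, and thalamus markers highest with a median of 0.48.

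Markers of neighbouring regions and of other cell types were set beside these groups, since a dissected sample can hold tissue from around the hypothalamus. For bulk tissue such as this, fewer cells of a type and less RNA per cell cannot be told apart. Thalamus markers were positive in 20 of 22 tested members with a median of 0.48 in the authors' deposited table. Rora, a nuclear receptor that is also in the clock list, stood at 0.89 ± 0.43 (unadjusted p = 0.041) and Prkcd, an abundant thalamic kinase gene, at 1.41 ± 0.43 (unadjusted p = 0.00091) in the authors' deposited table. Habenula markers were positive in 11 of 12 tested members (median 0.29), led by the receptor gene Gpr151 at 1.00 ± 0.40 (unadjusted p = 0.013), in the authors' deposited table. The 2 habenula markers without a p were negative, and over all 14 the median was 0.28. Medians of markers for cortex and hippocampus (0.05) and striatum (0.10) were smaller, although Mef2c, a cortical transcription factor gene, stood at 1.09 ± 0.34 (unadjusted p = 0.0015) and Pde10a, a striatal phosphodiesterase gene, at 0.77 ± 0.34 (unadjusted p = 0.025) in the authors' deposited table. No marker of these 4 regions was called in the authors' deposited table, and the part of dissection in the called genes was not tested.

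Hypothalamic transcription factor genes were negative in 9 of 14 tested members with a median of -0.19 in the authors' deposited table, while the 7 members with a mean normalized count of 100 or more had a positive median of 0.08. Six3, among the 5 positive members, had the smallest p of the list, at 0.94 ± 0.36 (unadjusted p = 0.0085), in that deposited table of the authors. Astrocyte markers were negative in 23 of 25 members with a median of -0.23, among them Ndrg2 (-0.61 ± 0.27; unadjusted p = 0.026), Aldoc (-0.41 ± 0.20; unadjusted p = 0.039) and Gfap (-0.39 ± 0.39), in the authors' deposited table. Ependymal and tanycyte markers, the lining of the third ventricle, had a median of -0.14 over 19 tested members, and the progenitor gene Nes stood at -0.78 ± 0.30 (unadjusted p = 0.0086) in the authors' deposited table. Markers of myelin (median 0.01), vessels (-0.00) and choroid plexus (0.03) were centred near 0 in the authors' deposited table, with Mbp at -0.58 ± 0.34. Of 10 blood markers the globin genes Hba-a1, Hba-a2, Hbb-bs and Hbb-bt were listed at 0, and the pituitary hormone genes Gh (0.104) and Prl (0.0796) had mean normalized counts near 0, in the authors' deposited table.

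Levels of several defining hypothalamic genes were low in this table. All of 27 hypothalamic transcription factors were detected, but 10 had a mean normalized count under 10, among them Nr5a1 of the ventromedial nucleus (0.747), Rax of tanycytes (1.60) and Sim1 of the paraventricular nucleus (4.59), in the authors' deposited table. Summed as a share of the table, the list was not lower here, at 140 ppm against 115 to 131 ppm in the authors' other 3 deposited tables, with 9 of its members at their lowest and 10 at their highest of the 4. Agrp had a mean normalized count of 1.54 and Oxt, the oxytocin gene, 13.9, in the authors' deposited table. As a share of each table's sum, with the tables normalized separately, Oxt stood at 0.905 ppm here against 16.8 to 50.9 in the other 3 deposited tables of the authors, and Avp at 3.68 against 34.1 to 69.2. Of 10 hypothalamic peptide genes, 9 had their lowest share of the 4 deposited tables here, and Hcrt was the exception at 25.1 ppm, above HCD-weaned males (15.4) and females (22.5). Pmch (116 against 120 to 299 ppm) and Npy (36.9 against 47.8 to 75.2) lay closer to the others in the authors' deposited tables. At the same time, 20 of 23 thalamus markers and 14 of 18 choroid plexus markers had their highest share of the 4 deposited tables here. So had 8 of 14 habenula markers and 10 of 14 markers of oligodendrocyte precursors. For cortex and hippocampus it was 4 of 24, and for striatum 2 of 20. It was 10 of 25 for astrocytes, 10 of 24 for vessels, 9 of 25 for myelin and 7 of 16 for markers common to neurons. Ependymal and tanycyte markers had 7 of 24 at their highest, as had markers of meninges. Of 28 markers of microglia and complement, 6 were at their highest and 13 at their lowest. The share of all genes with their highest or lowest value here was not computed, so no weight is put on these counts. These levels are means over both diet groups of a comparison, so they describe RD-weaned males as a whole. The part of dissection or of library preparation in them was not tested.

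**Figure D3:**
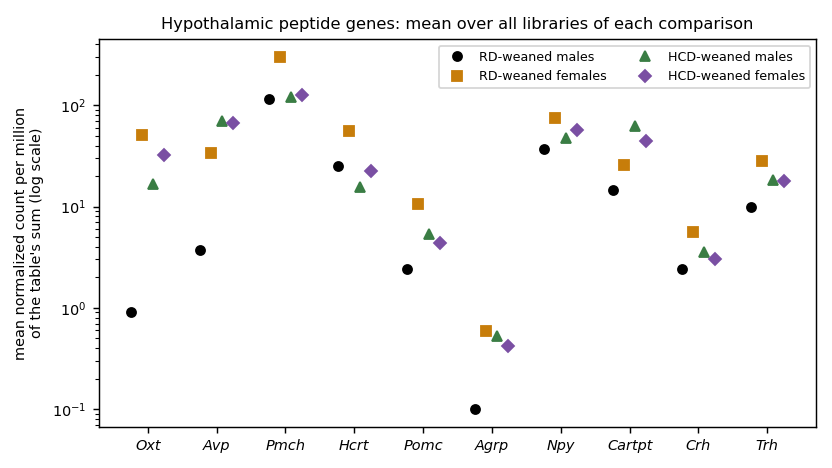
Mean normalized count in ppm of the table's sum (vertical axis, log scale) of 10 hypothalamic peptide genes in each of the authors' 4 deposited tables, which were normalized separately; each point is a mean over all libraries of a comparison and carries no error. Levels are to be compared within a gene: the black circles of RD-weaned males are lowest for 9 of 10 genes, with the widest gaps at Oxt and Avp.

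Sex-linked genes were in keeping with the male label. Xist, transcribed from the inactive X of females, had a mean normalized count of 0.447 and the Y-linked gene Ddx3y one of 493 in the authors' deposited table of RD-weaned males. Ddx3y stood at 0.94 ± 0.41 (unadjusted p = 0.023) between the diet groups, while the other Y-linked genes stood at -0.04 for Eif2s3y, 0.09 for Kdm5d and 0.18 for Uty in that deposited table of the authors.

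Immediate early genes respond within minutes to neuronal activity, and clock genes follow the time of day. Of 26 immediate early genes 10 were positive, with a median of -0.12: Egr2 stood at 1.08 ± 0.42 (unadjusted p = 0.0098), Fosl2 at -0.91 ± 0.38 (unadjusted p = 0.017) and Npas4 at -0.91 ± 0.45 (unadjusted p = 0.044) in the authors' deposited table. Among 19 clock genes, the repressor gene Nr1d2 stood at 0.73 ± 0.24 (unadjusted p = 0.0024), and the median was 0.15 in that deposited table of the authors. Genes of glucocorticoid receptors and their targets were positive in 13 of 18 tested members (median 0.15), with Fkbp5 at 0.59 ± 0.42, in the authors' deposited table. None of these genes was called. In the remaining lists, the renin receptor gene Atp6ap2 (0.78 ± 0.24; unadjusted p = 0.00097), the collagen gene Col3a1 (-1.06 ± 0.37; unadjusted p = 0.0046), the chaperone genes Hsp90aa1 (0.54 ± 0.24) and Calr (-0.43 ± 0.18), the peroxiredoxin gene Prdx6 (-0.67 ± 0.34) and the mevalonate kinase gene Mvk (-0.70 ± 0.35) had the smallest p in the authors' deposited table.

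A fold change without a p was unusually frequent in these males. It affected 10.7% of genes at or above the minimum (1554 of 14474) in the authors' deposited table, against 2.23% in RD-weaned females and 0 genes in both HCD-weaned tables. Genes without a p had a median mean normalized count of 86.0, against 435 for tested genes, but they included the abundant Ttr, the transthyretin gene of the choroid plexus (77690), and Pmch (1793) as well as the low Oxt (13.9), in the authors' deposited table. Of the 1554, 822 were positive and 732 negative, with a median of 0.02 in the authors' deposited table. Why these genes have no p is not stated in the sources used here.

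In RD-weaned females the same maternal contrast gave 52 calls among 15028 tested genes (0.346%) in the authors' deposited table. Nnat was called in both sexes, at -0.90 ± 0.219 in males and -1.19 ± 0.237 (adjusted p = 0.00113) in females, in the authors' deposited tables. Of 46 genes called in females and tested in males, 35 had the same sign as read and 6 had an unadjusted p under 0.05 in males in the authors' deposited tables. Of those 6, Nnat, Sparc (-0.68 in males, -0.96 in females), Mef2c (1.09 and 1.02), Enc1 (0.59 and 0.77) and Dzip1 (-0.80 and -0.82) had the same sign in the authors' deposited tables. The other one, the habenula receptor gene Gpr151, did not: it stood at 1.00 ± 0.40 in males and -1.57 ± 0.29 (adjusted p = 0.00035) in females in the authors' deposited tables. Of genes with an unadjusted p under 0.05, 42 were shared, 7.85% of the 535 in males and 5.30% of the 792 in females, and 37 of the 42 had the same sign in the authors' deposited tables. The 9 genes called in males and tested in females all had the same sign as read, and 2 of them had an unadjusted p under 0.05 in females. Over all 12636 genes tested in both, 52.1% had the same sign as read.

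The difference between the sexes was tested gene by gene, as the difference of both fold changes over their joint standard error. Mir6236 and Rn45s had no adjusted p in RD-weaned females and were not part of this test. Of 12636 genes 1 differed at an adjusted p under 0.05 (0.00791%): Gpr151, by 2.57 ± 0.498 (adjusted p = 0.00295) from the authors' deposited tables. The next smallest adjusted p was 0.916, and 385 genes (3.05%) had an unadjusted p under 0.05. Beside it, the habenula list, which holds Gpr151, had a median of 0.29 in males and -0.64 in females, and the thalamus list 0.48 and -0.41, in the authors' deposited tables. Without Gpr151 the medians of the habenula list were 0.28 and -0.62, and of its 11 remaining members 0 in males and 6 in females had an unadjusted p under 0.05 in the authors' deposited tables. The difference between the sexes passed for none of these 11. The part of dissection in the difference was not tested. If the female table of the authors alone were turned, 14 genes would differ and Gpr151 would not be among them, with Nnat, Mef2c and Snap25 leading.

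None of the 11 genes called in RD-weaned males was called in HCD-weaned males, where 25 of 15384 tested genes were called. As read, 9 of the 11 had the same sign there, against 48.8% of all genes tested in both of the authors' tables. With the table of RD-weaned males turned, 2 of the 11 had the same sign as in HCD-weaned males, against 51.2% of all genes. Snap25 stood at 0.08 ± 0.24, Nptn at -0.02 ± 0.25, Nnat at -0.12 ± 0.26 and Fam126b at -0.41 ± 0.27 in the authors' deposited table of these males, and Zfp36l1 was the largest in size at -0.60 ± 0.26. Pcdh15 stood at -0.59 ± 0.31, Rn45s at -0.31 ± 0.27 and Nmral1 at 0.31 ± 0.26 in the authors' table of HCD-weaned males. Of 12910 genes tested in both, 1 differed between the postnatal diets at an adjusted p under 0.05 (0.00775%): Mir6236, at -3.28 in RD-weaned and -0.46 ± 0.32 in HCD-weaned males, a difference of -2.82 ± 0.550 (adjusted p = 0.00379) from the authors' deposited tables. Reads at this locus are uncertain in both tables. Cartpt came next, at -1.05 in RD-weaned and 1.13 in HCD-weaned males (difference -2.18 ± 0.530; adjusted p = 0.250), from the authors' deposited tables, and did not pass. For Snap25 (difference 0.80 ± 0.281, adjusted p = 0.978) and Nptn (0.68 ± 0.293, adjusted p = 0.978) the test between the authors' tables did not pass either, so that an effect of its own in chow-weaned males was not shown for them. With the table of RD-weaned males turned, 4 genes would differ, namely Mir6236, Rn45s, Zfp36l1 and Nmral1.

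**Figure D4:**
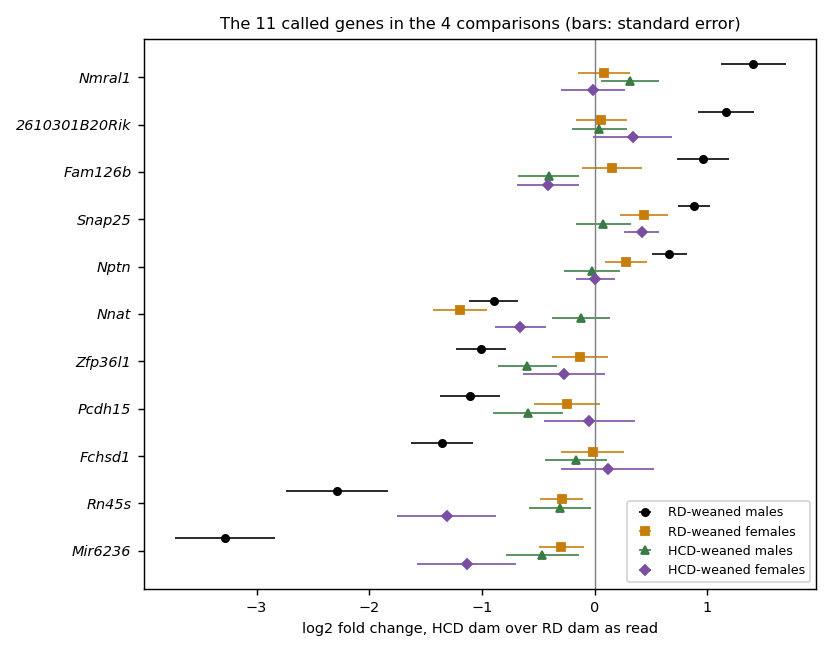
Log2 fold change (horizontal axis, HCD dam over RD dam as read) of the 11 genes called in RD-weaned males, in each of the authors' 4 deposited tables; bars are standard errors. Nnat lies left of 0 in all 4 comparisons, and Snap25 right of 0 in all 4 with a value near 0 in HCD-weaned males. With the RD-weaned tables turned, the RD-weaned points would lie on the other side of 0.

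Among females weaned onto HCD, 8 of the 11 genes had the same sign as read, against 50.5% of all genes tested in both of the authors' tables, and 3 of 11 with the RD-weaned table turned. Rn45s (-1.31 ± 0.44), Mir6236 (-1.14 ± 0.44), Nnat (-0.66 ± 0.23) and Snap25 (0.42 ± 0.16) had an unadjusted p under 0.05 but were not called in the authors' deposited table. As read, 7 of the 11 had 1 sign in all 4 deposited tables of the authors: Snap25 and 2610301B20Rik were positive, and Nnat, Zfp36l1, Pcdh15, Mir6236 and Rn45s negative. Of these, Mir6236 and Rn45s had no adjusted p in RD-weaned females. The share of all genes with 1 sign in all 4 was not computed, so no weight is put on this count. With both RD-weaned tables turned, the signs of these 7 in RD-weaned offspring would be opposite to those in HCD-weaned offspring. At the level of lists, the sign of the ribosomal and respiratory genes in RD-weaned males was not that of the HCD-weaned offspring. For cytosolic ribosomal protein genes the median was -0.40 here, -0.03 in RD-weaned females, 0.33 in males weaned to HCD and 0.31 in females weaned to HCD, and for respiratory chain genes it was -0.25, 0.07, 0.40 and 0.53 in that order, in the authors' deposited tables. Proteasome genes followed the same order with medians of -0.13, 0.03, 0.38 and 0.45 in the authors' deposited tables. Turned, the medians of RD-weaned males would be 0.40 for ribosomal and 0.25 for respiratory genes. These medians were not tested against each other, and the fold changes may be shrunken toward 0 to unlike degrees in the 4 tables.

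**Figure D5:**
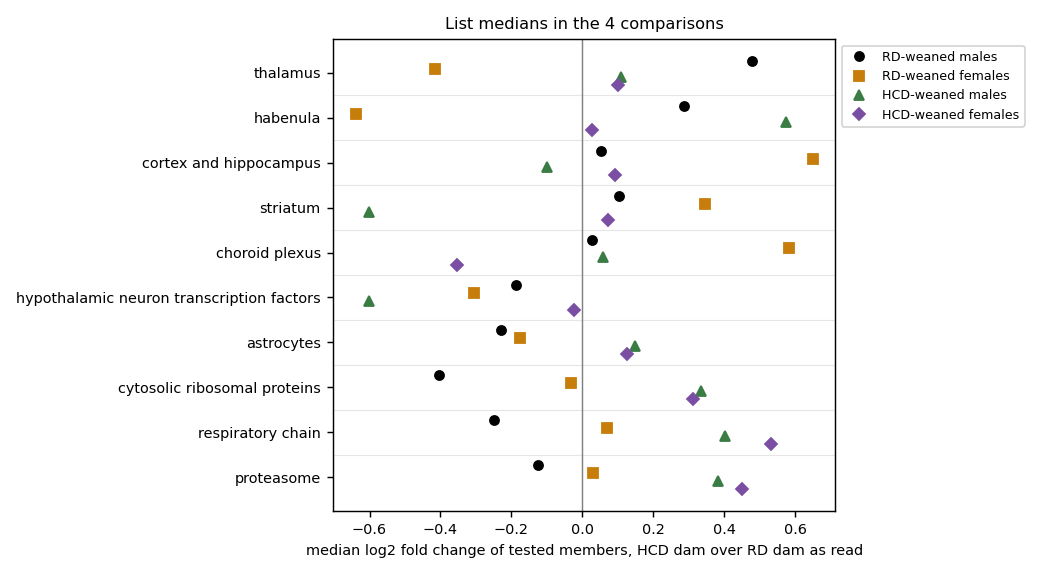
Median log2 fold change (horizontal axis, HCD dam over RD dam as read) of the tested members of 10 gene lists in the authors' 4 deposited tables. Thalamus and habenula markers lie on opposite sides of 0 in RD-weaned males and RD-weaned females, and of the 4 comparisons the respiratory and proteasome genes lie left of 0 in RD-weaned males only.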

How the data were processed

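Poly(A) RNA from hypothalamus was made into libraries with a stranded mRNA kit, per the labels' protocols. DESeq (without a version) and the genome mm10 come from the submitters' processing notes. Aligner, counter and annotation: not given in the sources used here. The authors' 4 deposited comparison tables were used. Per the file headers they hold the mean over libraries as a normalized count (unit signal), the fold change and its standard error on the log2 scale, a Wald statistic (a score) and a p-value with its adjusted p-value. The authors' fold changes look shrunken toward 0, with a median size of 0.11 in genes under a mean of 10 and 0.21 at 100 or more, so tests of a difference can be conservative. The degree of shrinkage may differ between tables, which can also affect a difference between them. Largest standard errors were 0.454 in RD-weaned males, 0.296 in RD-weaned females, 0.326 in HCD-weaned males and 0.447 in HCD-weaned females. The part of shrinkage in any difference was not tested.

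The 8 deposited files of counts and rlog values hold 48 library columns whose names match no label. They were not used, so a count test, depth per sample and values per library are not given.

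A call is an adjusted p under 0.05. Between tables, the difference of 2 fold changes was set against the root of their summed squared standard errors (normal distribution, Benjamini-Hochberg over the genes that both tables adjusted). The code was tested on simulated data. Positions and symbols come from RefSeq (GRCm38.p6), which matched 212 of 213 named genes, and transcript lengths from GENCODE M21 (Python 3.11.15, scipy 1.17.1, pandas 2.3.3).

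Genes, and 42 lists with 1215 symbols (1188 in the table), were chosen with earlier results of these data known. Named are all called genes, the 15 of smallest p in each direction, up to 4 of smallest p per list with fixed lead genes, up to 10 per test of a difference and 4 at the minimum of 10. Other genes named from the marker lists (globin, pituitary and transcription factor genes given as levels) and from the genes called in females were chosen after their values were seen. None of the 13 mitochondrially encoded genes listed is in the table. Alternatives were another threshold, other sets of genes for adjustment, centring, the robust spread of the Wald statistic, removal of the length trend and turned signs. The value of 1 further gene that the rule names is not reported here.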

Additional observations from a re-analysis of the deposited data

Results flagged for a closer look

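Gpr151, a receptor gene of the habenula, differed between RD-weaned males and RD-weaned females by 2.57 on the log2 scale (adjusted p = 0.00295 in the test of the difference between the authors' deposited tables), positive in males and negative in females as read. It did not pass within the males alone, where the authors' deposited table gives an adjusted p of 0.762. With the sign of 1 table turned it no longer differed.

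Mir6236 differed between RD-weaned and HCD-weaned males by -2.82 (adjusted p = 0.00379 in the test of the difference between the authors' deposited tables). It was negative in both deposited tables as read. With the sign of 1 table turned it still differed, by -3.74.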

How the results depend on the processing

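The count of 11 called genes became 23 at an adjusted p under 0.10 (14 positive and 9 negative) and 74 with the robust spread. It was 9 to 13 with adjustment over every p, over genes with a mean of 10 or 100, with centring and with the length trend removed. Genes that differ numbered 1 in each test, and 14 for RD-weaned females and 4 for HCD-weaned males with the sign of 1 table turned. Of 117 alternative medians of 39 lists, 12 moved by over 1.5 times with their sign kept. A further 5 changed sign: hypothalamic transcription factors (-0.19 to 0.08), feeding circuits (0.08 to -0.03) and meninges (0.04 to -0.09) over members with a mean of 100 or more, and nuclear noncoding RNAs (-0.01 to 0.05) and synaptic vesicle genes (-0.00 to 0.02) with the length trend removed. That removal took MHC class I from -0.13 to -0.01. Leaving Gpr151 out of the habenula list and Mir6236 and Rn45s out of the tail-less RNAs was chosen after seeing the data. Of 30 named genes, the robust spread, which could only add calls, added 19. Length removal lost Nnat (0.0514) and added Doc2b and Ap3m1 (both 0.0398). Rn45s has no length there.

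No paired analysis was possible because the library columns carry no replicate number of the labels. For the same reason no library was left out in turn and no count test was run. With 3 and 4 labelled samples and a median standard error of 0.397, the smallest called difference was 0.66 on the log2 scale (Nptn), and depth per sample is not known here. Whether all 7 labelled samples entered the comparison is not known either.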
